A study of Mus musculus with 28 samples.

Results

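The results concern 10 genes of the NF-κB pathway in mice that express human APOBEC3B (A3B): the subunit genes Rela, Relb, Nfkb1 and Nfkb2, the feedback inhibitors Nfkbia and Tnfaip3, the survival gene Birc3, the adhesion genes Icam1 and Vcam1, and the cytokine gene Tnf. All 10 were found among the 35858 gene symbols of 1 set of samples and among the 24845 gene rows of the other. RNA-seq of 28 samples was used, 12 in set 1 (liver and lung) and 16 in set 2 (liver and pancreas), and A3B was compared with control within each tissue of each set. Each sample came from 1 numbered mouse, so the spread between replicates is spread between animals.

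A3B mice carried a tetO-A3B-turboGFP transgene, placed at the Col1a1 locus of KH2 embryonic stem cells, and the CAGs-rtTA3 transactivator, which is active in most adult tissues and drives A3B when doxycycline is in the diet. In set 2 the livers of A3B mice 44, 48, 49, 125, 137 and 153 and the pancreases of A3B mice 44, 49, 53, 125, 137 and 153 were compared with the livers and pancreases of control mice 45 and 168, and the labels give 10 days of doxycycline to all of them. According to the study's list of mice these controls carried the A3B transgene without the transactivator, and on doxycycline the study's text is not uniform, with control littermates fed it in one place and the sequenced controls left without it in another. The genotype labels go against the titles for 4 pancreases: A3B pancreases 44 and 137 are labelled with the A3B transgene alone and control pancreases 45 and 168 with both transgenes. Groups were taken from the titles. In set 1 the A3B livers came from mice 23 and 28 (14 days) and 70 (10 days) and the A3B lungs from mice 69, 70 and 74 (10 days). The set 1 controls were livers 11, 91 and 92 and lungs 87, 88 and 91, labelled with 15 days of doxycycline, although the list of mice gives doxycycline to mouse 87 alone among these. Control liver 11 is labelled with both transgenes, control lung 87 with the transactivator alone, and the other set 1 controls with the A3B transgene alone. Time on doxycycline, doxycycline itself and A3B cannot be told apart in set 1.

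NF-κB is a family of dimeric transcription factors. RELA and p50, the product of Nfkb1, form the main dimer of the canonical branch and are held in the cytoplasm by IκBα, the product of Nfkbia, until receptors for TNF, interleukin 1 or bacterial products trigger its degradation. RELB and p52, the product of Nfkb2, act in the non-canonical branch. The freed dimers raise transcription of their own inhibitors Nfkbia and Tnfaip3 and of Birc3, Icam1, Vcam1 and Tnf. The pathway is known in liver, pancreas and lung for its part in inflammation and in the survival of injured cells.

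Promoter windows reaching from 250 bases before to 50 bases after a transcription start were found in the RefSeq table (GRCm38.p6) for 7 of the 10 genes, in 10 windows since Nfkb2 has 3 starts and Tnfaip3 has 2. The NF-κB consensus, a match of 10 bases searched on both strands by its name alone, was present in the 250 bases before the start in 5 windows of 3 genes, and in 7.25% of all 32851 windows and 8.23% of all 27025 genes. The 3 genes are the inhibitors Nfkbia and Tnfaip3 and the subunit gene Nfkb2, whose products can all restrain NF-κB, in the case of Nfkb2 as the precursor p100. Nfkbia has 1 match that begins 29 bases before the start, upstream of the annotated gene. Tnfaip3 has matches 125 and 12 bases before one start, both in an intron of a longer annotated transcript. Nfkb2 has 2 overlapping matches, the first of which begins 39 bases before its first start, and another at 11, all in a non-coding part of an exon, a match 236 bases before the second start in an intron, and one 225 bases before the third start in a non-coding part of an exon. The windows of Birc3, Icam1, Tnf and Rela held none, which says only that these letters are not in them, and Tnf and 1 window of Tnfaip3 held TATAAA on either strand, as did 12.4% of all windows. The 30 bases around each match are shown because the inhibitors among these genes are known as targets of the factor they restrain; they are written 5′ to 3′ on the strand of the gene, with the match in capitals, and a match is a description of the letters, not a binding site.
Nfkbia, chr12:55492657-55492686, minus strand: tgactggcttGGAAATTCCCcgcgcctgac
Tnfaip3, chr10:19015516-19015545, minus strand: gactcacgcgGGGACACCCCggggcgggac
Tnfaip3, chr10:19015411-19015440, minus strand: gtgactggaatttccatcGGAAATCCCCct
Nfkb2, chr19:46304688-46304717, plus strand: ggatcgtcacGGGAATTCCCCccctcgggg
Nfkb2, chr19:46304707-46304736, plus strand: ccccctcggggggccgaaaGGGGCTTTCCc
Nfkb2, chr19:46305449-46305478, plus strand: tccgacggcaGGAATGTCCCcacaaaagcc
Nfkb2, chr19:46305695-46305724, plus strand: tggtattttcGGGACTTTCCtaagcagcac

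In set 1 the human transgene was read at 705 to 1705 TPM (the transcripts-per-million unit, a length-corrected level) in A3B livers and at 0.0928 to 0.144 TPM in control livers, and at 90.6 to 281 TPM in A3B lungs and at 0.435 to 0.526 TPM in control lungs. It was not analysed in set 2. The libraries of set 2 held 65161064 to 118976013 estimated counts in the liver and 74836907 to 95604352 in the pancreas, and the depth of set 1 is unknown. Hepatocyte markers summed to at least 5570 TPM in every liver, acinar markers to at least 63415 TPM in every pancreas and lung epithelial markers to at least 18100 TPM in every lung. The TMM factors, which scale each library to a common composition, were 0.21 and 0.443 in the control pancreases and 1.3 to 1.79 in the A3B pancreases.

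In the pancreas, 6 of the 10 genes were higher in A3B mice than in controls at an adjusted p under 0.05 by edgeR, and none was lower. The 6 were Vcam1, Birc3, Icam1, Rela, Nfkbia and Nfkb1, and on the TMM-scaled CPM scale they are also the 6 genes for which every A3B pancreas lay above both controls. Over all 19123 genes tested, 17.0% were higher and 14.9% lower, and in 25.1% every A3B pancreas lay above both controls in CPM. In TPM this held for all 10 genes and for 70.8% of all genes. The median log2 fold change was 1.15 over the 10 genes and 0.09 over all genes.

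Of the subunits, Rela (chr19:5637483-5648130), which encodes the transactivating subunit p65, stood at 34.8 and 22.9 CPM in control pancreases 45 and 168, where CPM are the estimated counts put on a counts-per-million scale with the TMM factors. The A3B pancreases ranged from 61.3 to 97.3 CPM with a median of 77.8. All 6 lay above both controls, and the log2 fold change of the CPM was 1.46 ± 0.27 (SE, adjusted p = 0.0031 by edgeR). Nfkb1 (chr3:135584655-135691547), the source of p105 and p50, measured 22.5 and 34.7 CPM in the controls and 48.5 to 65.1 CPM (median 55.3) in A3B pancreases. Its groups did not overlap either, with a log2 fold change of 0.96 ± 0.23 (SE, adjusted p = 0.0106 by edgeR). Relb (chr7:19606217-19629438), the subunit of the non-canonical branch, measured 4.33 and 12.9 CPM in controls 45 and 168 and 12.5 to 23.9 CPM (median 15) in A3B pancreases, and Nfkb2 (chr19:46304320-46312385), the source of p100 and p52, 8.93 and 24.8 CPM against 23.8 to 40.4 CPM (median 32.5). Both genes of the non-canonical branch overlapped with control 168, and neither passed the test, with log2 fold changes of 0.91 ± 0.39 (SE, adjusted p = 0.0987) for Relb and 0.91 ± 0.37 (SE, adjusted p = 0.085) for Nfkb2 by edgeR.

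Of the 2 feedback inhibitors Nfkbia was called and Tnfaip3 was not, and the difference between the 2 genes was not tested. Nfkbia (chr12:55489410-55492647), whose upstream match is printed above, measured 27.1 and 35 CPM in control pancreases and 43.5 to 90.7 CPM (median 66.2) in A3B pancreases. Its groups were separate and its log2 fold change was 1.05 ± 0.32 (SE, adjusted p = 0.029 by edgeR). Tnfaip3 (chr10:19000910-19015657), which encodes the ubiquitin-editing enzyme A20 and carries 2 of the matches, measured 2.74 CPM in control 45 and 16.9 CPM in control 168. The A3B pancreases ran from 8.56 to 19.2 CPM (median 13.8), and only 1 of the 6 lay above both controls. Its log2 fold change was 0.47 ± 0.54 (SE, adjusted p = 0.532 by edgeR).

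Birc3 (chr9:7848699-7873186), which encodes the ubiquitin ligase cIAP2 that protects cells from TNF-induced death, measured 16.7 and 30.5 CPM in the control pancreases. In A3B pancreases it ranged from 66.1 to 127 CPM with a median of 83.2. The lowest A3B pancreas exceeded the highest control, and the log2 fold change was 1.90 ± 0.35 (SE, adjusted p = 0.00284 by edgeR).

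The adhesion genes Icam1 and Vcam1 encode surface proteins that bind leukocyte integrins. Icam1 (chr9:21015985-21028817) stood at 5.15 and 16 CPM in the control pancreases and at 21.3 to 38 CPM (median 30.2) in A3B pancreases, a log2 fold change of 1.52 ± 0.41 (SE, adjusted p = 0.0173 by edgeR). Vcam1 (chr3:116109949-116129688) was at 2.52 and 11.3 CPM in the controls and at 19.7 to 110 CPM (median 34.9) in A3B pancreases, a log2 fold change of 2.85 ± 0.93 (SE, adjusted p = 0.0462 by edgeR). Vcam1 had both the highest fold change of the 10 genes and the largest spread among A3B pancreases of the called ones. Over all alternatives its log2 fold change stayed positive, from 2.18 to 4.78. Its call was lost with Y-chromosome expression, a stand-in for the sex of the mouse, as a covariate (adjusted p = 0.0888 by edgeR) and without a filter on low counts (adjusted p = 0.086 by edgeR), and without any one of A3B pancreases 44, 49, 53 and 137 or control 45 (adjusted p from 0.0508 to 0.211 by edgeR).

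Tnf (chr17:35199381-35202007), which encodes tumor necrosis factor, was read from 0 estimated counts in control pancreas 45 and 67 in control 168, and from 97 to 670 in A3B pancreases. On the CPM scale these were 0 and 1.59 in the controls and 0.815 to 5.04 (median 1.38) in A3B pancreases. A3B pancreas 49 held the highest value, and 4 of the 6 A3B pancreases did not exceed control 168. The log2 fold change was 1.24 ± 1.14 (SE, adjusted p = 0.431 by edgeR).

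**Figure D1:**
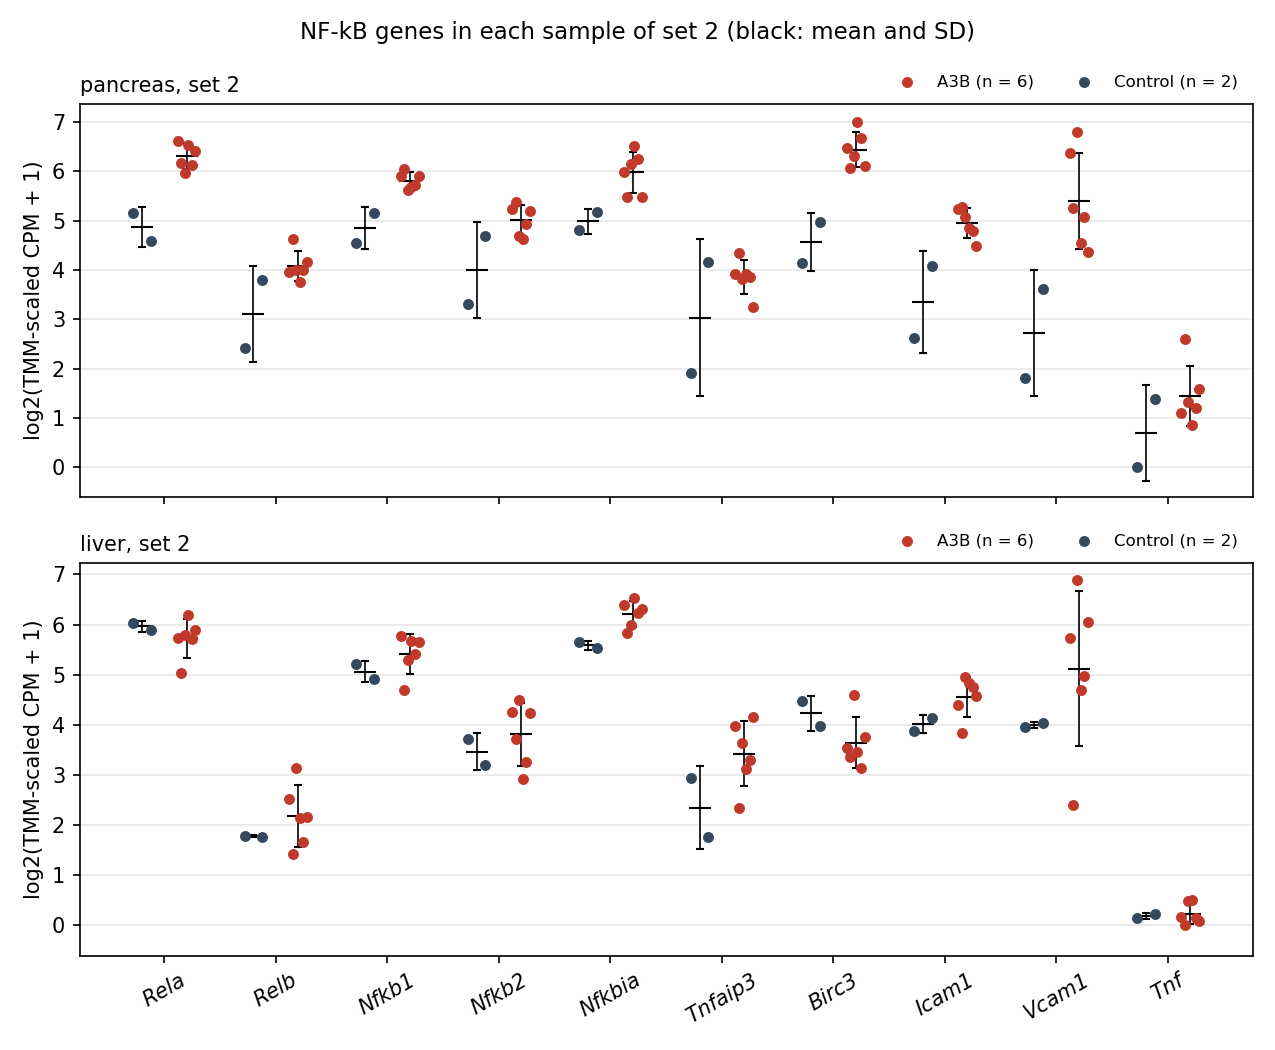
Level of the 10 genes in each sample of set 2, as log2(TMM-scaled CPM + 1), with A3B samples in red (n = 6), controls in dark blue (n = 2) and the mean and SD of the log2 values in black. In the pancreas, the A3B and control points of Rela, Nfkb1, Nfkbia, Birc3, Icam1 and Vcam1 do not overlap on this scale, and in the liver those of Nfkbia alone do not.

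The 2 control pancreases were not alike. On the CPM scale control 168 was above control 45 in 9 of the 10 genes, all but Rela. In TPM it was above control 45 in Rela as well (6.11 against 3.24 TPM). From the lower to the higher control, the B cell sums were 7.56 and 282 CPM, the T cell sums 7.18 and 125 CPM and the leukocyte sums 18.8 and 261 CPM. The endothelial sums were 171 and 177 CPM. The part of these markers in the difference between the controls was not tested. Without control 45, 2 of the 10 genes were called in the pancreas in place of 6 (10.2% of all genes higher), with Rela (log2 fold change 1.81) and Birc3 (1.55) still past the threshold, Icam1 at 0.95, Relb at 0.36, Nfkb2 at 0.38 and Tnfaip3 at -0.28. Without control 168, 9 of the 10 were called, all but Nfkbia, against 15.5% of all genes, and the log2 fold change was 4.34 for Vcam1 and 2.58 for Icam1. The call of Nfkbia was lost without either control, and also without A3B pancreas 137 (adjusted p = 0.0507 by edgeR). Its log2 fold change ran from 0.89 to 1.26 with each sample left out in turn. In the fits without control 45 or control 168, the single control left was assumed to vary as the A3B pancreases do. Without A3B pancreases 44 and 137, whose genotype labels go against their titles, 3 of the 10 were called, against 11.9% of all genes. Among the A3B pancreases, mouse 49 had the highest CPM in 6 of the 10 genes (Relb, Nfkb1, Nfkb2, Tnfaip3, Icam1 and Tnf) and the lowest in Birc3.

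The size of these differences depended on how libraries were scaled, while their sign did not. With counts scaled by their totals, the all-gene median in the pancreas moved from 0.09 to 2.29 (log2). On that scale the 10 genes ran from 2.37 (Tnfaip3) to 4.78 (Vcam1), all above that median, and 9 of them were called, all but Tnf, where 70.5% of all genes were called higher. With limma on log2(TPM + 1), all 10 were called between 1.22 (Tnf) and 4.32 (Birc3), as were 83.9% of all genes, and 9 lay above the median of all genes of 1.75, with Tnf below it. Most genes were called higher on these 2 scales, so nothing is read from the counts among the 10. DESeq2 called the 6 genes that edgeR did, against 14.0% of all genes.

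**Figure D2:**
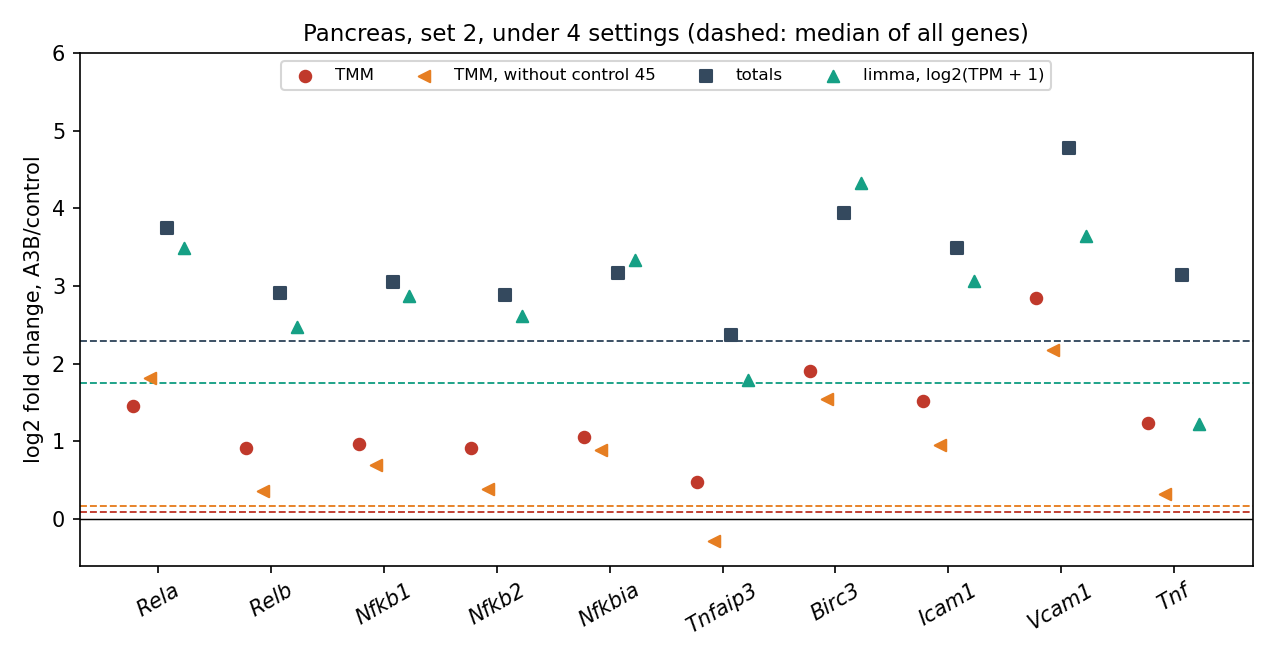
Log2 fold change of each gene between A3B and control pancreases under 4 settings, with the median of all genes tested under each setting as a dashed line in the same color. All 10 genes lie above their own dashed line with TMM and with totals, Tnf lies below it in the limma fit and Tnfaip3 lies below it without control 45.

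Several cell-type marker lists moved in the pancreas beside these genes, and their part in the result was not tested. Of 8 acinar markers 7 were lower and none higher, and their summed level was 30621 to 90072 CPM in A3B pancreases and 583088 to 1248307 CPM in controls (TMM scaling changes the effective library size, so that a sum can pass the nominal total). Of 8 macrophage markers 5 were higher and none lower, with sums of 1029 to 2727 CPM in A3B pancreases and 225 to 1261 CPM in controls. Of 7 fibroblast and stellate markers 5 were higher and none lower (2231 to 3709 CPM against 573 to 907 CPM), and of 4 leukocyte markers 1 was higher (201 to 447 CPM against 18.8 to 261 CPM). Of 8 endothelial markers 1 was higher, Cdh5, and their sums of 173 to 282 CPM in A3B pancreases and 171 to 177 CPM in controls lay close together. In TPM, which carries no TMM factor, the same endothelial sums were 78.3 to 126 in A3B pancreases and 12.3 to 29.8 in controls, with no overlap. On that scale every A3B pancreas lay above both controls in 70.8% of all genes. The macrophage (1189 to 3593 against 37.9 to 518 TPM), fibroblast (975 to 1501 against 42.3 to 189 TPM) and leukocyte sums (213 to 781 against 3.38 to 143 TPM) did not overlap either. The T cell, B cell and neutrophil sums overlapped in TPM. Of 6 neutrophil markers 1 was higher and 1 lower. None of 5 hepatocyte markers was called (71.4 to 1034 CPM in A3B pancreases and 41 to 456 CPM in controls). No T cell or B cell marker was called, and every marker of these lists reached at least 1 CPM in some pancreas. The T cell sums were 12 to 87.7 CPM in A3B pancreases and 7.18 to 125 CPM in controls. The B cell sums were 2.23 to 63.5 CPM and 7.56 to 282 CPM, so the controls differed widely in both lists. In bulk tissue, fewer cells of a type and less RNA per cell cannot be told apart.

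Tested transcript by transcript in the pancreas, 6 of the 10 genes had at least 1 transcript past the threshold, all higher, and 32.2% of the 18929 genes with a tested transcript had one. These were Rela, Relb, Nfkbia, Birc3, Icam1 and Vcam1, and Nfkb1 was not among them although its gene sum was called. The coding transcript Rela-201 had a log2 fold change of 1.90 ± 0.31 (SE, adjusted p = 0.00484 by edgeR) and Birc3-201 one of 2.26 ± 0.37 (SE, adjusted p = 0.00533). For Nfkbia, the coding transcript Nfkbia-201 was called (1.34 ± 0.35, adjusted p = 0.0319 by edgeR) and the transcript Nfkbia-202, which retains an intron, was not (2.98, adjusted p = 0.124). Relb was called through the coding transcript Relb-202 alone (5.62 ± 1.57, adjusted p = 0.0391 by edgeR).

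In the liver of set 2, none of the 10 genes was called higher or lower in A3B mice by edgeR, with 1 of them under an unadjusted p of 0.05 (Nfkbia), a share below the 22.9% of all genes, and DESeq2 called none either (5.27% of all genes higher). Of 17365 genes tested, 1.26% were higher and 2.41% lower. On the CPM scale Nfkbia was the only gene of the 10 for which every A3B liver lay above both controls, which held for 15.0% of all genes. In TPM none of the 10 met this, since A3B liver 48 held 44.1 TPM of Nfkbia and control liver 45 held 54.4 TPM, while 24.3% of all genes did. It measured 49.4 and 45 CPM in control livers 45 and 168 and 55.7 to 90.9 CPM (median 75.9) in A3B livers, and its log2 fold change was 0.65 ± 0.26 (SE, adjusted p = 0.183 by edgeR). With counts scaled by their totals its fold change was 1.09 and its adjusted p was 0.0488 by edgeR, beside 5.06% of all genes called higher and a median of all genes of 0.67 on that scale. The median log2 fold change in the TMM fit was 0.54 over the 10 genes and 0.21 over all genes.

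The second inhibitor, Tnfaip3, measured 6.64 and 2.41 CPM in control livers 45 and 168 and 4.1 to 16.8 CPM (median 10.2) in A3B livers, of which 5 of 6 were above both controls (log2 fold change 1.23 ± 0.59, SE, adjusted p = 0.246 by edgeR). Vcam1 spread most widely. It stood at 14.6 and 15.5 CPM in the control livers, at 4.25 CPM in A3B liver 48 and at 117 CPM in A3B liver 49, with a median of 41.3 CPM over the 6 A3B livers and a log2 fold change of 1.71 ± 0.95 (SE, adjusted p = 0.31 by edgeR). Icam1 measured 13.8 and 16.6 CPM in controls and 13.3 to 29.9 CPM (median 24.4) in A3B livers, with 5 of 6 above both controls (0.61 ± 0.33, SE, adjusted p = 0.289 by edgeR).

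The subunit genes overlapped between the groups of livers. Rela stood at 64.7 and 58.4 CPM in the controls and at 31.7 to 72.1 CPM (median 53.4) in A3B livers, and its log2 fold change of -0.21 ± 0.29 (SE, adjusted p = 0.711 by edgeR) turned to 0.24 with counts scaled by their totals. In TPM 4 of the 6 A3B livers lay above both controls in Rela and 1 below them. Nfkb1 measured 35.9 and 29.1 CPM against 25 to 53.8 CPM (median 45.4), a log2 fold change of 0.40 ± 0.31 (SE). Relb measured 2.46 and 2.41 CPM against 1.68 to 7.81 CPM (median 3.47), and Nfkb2 12.2 and 8.21 CPM against 6.54 to 21.5 CPM (median 15), with log2 fold changes of 0.68 ± 0.61 and 0.47 ± 0.47 (SE). The adjusted p of these 3 genes lay between 0.469 and 0.584 by edgeR.

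Birc3 was the other gene with a negative value, at 21.2 and 14.8 CPM in control livers and 7.81 to 23.2 CPM (median 10.3) in A3B livers. A3B liver 49 held the highest value and the other 5 lay below both controls (log2 fold change -0.55 ± 0.40, SE, adjusted p = 0.436 by edgeR). Limma on log2(TPM + 1) gave 0.16, and in TPM 2 A3B livers lay above both controls and none below them. Tnf was read from no more than 34 estimated counts in any liver and from 0 in A3B liver 48, and its difference was not detectable at this depth (0.44 ± 1.19, SE, adjusted p = 0.857 by edgeR).

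A3B liver 48 had the lowest CPM of the A3B livers in 8 of the 10 genes, all but Nfkb2 and Birc3. A3B liver 49 had the highest in 5, Relb, Nfkb2, Birc3, Icam1 and Vcam1. Without either of them no gene of the 10 was called. The summed macrophage markers ran from 36.1 to 827 CPM in A3B livers and from 420 to 423 CPM in controls, and the leukocyte markers from 12.1 to 180 CPM and from 52.9 to 57.4 CPM, with none of the 8 and 4 genes called. The neutrophil and hepatocyte sums separated the groups in CPM, the former at 4.91 to 40.5 CPM in A3B livers and 3.85 to 4.4 CPM in controls and the latter at 33944 to 86151 CPM and 133899 to 202655 CPM, although none of the 6 and 5 genes was called. The endothelial sums were 29.2 to 190 CPM in A3B livers and 172 to 224 CPM in controls, with none of 8 genes called. Of 8 acinar markers 1 was lower, with sums of 2.29 to 299 CPM in A3B livers and 37.7 to 60.7 CPM in controls. The part of these markers in the levels of the 10 genes was not tested.

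The difference between A3B and control differed between pancreas and liver for 2 of the 10 genes, Birc3 and Rela, both in the positive direction and none in the negative. The share of the 19908 genes tested was 6.87% in the positive and 5.03% in the negative direction. The interaction on the log2 CPM scale was 2.61 ± 0.54 (SE, adjusted p = 0.00812 by edgeR) for Birc3 and 1.83 ± 0.39 (SE, adjusted p = 0.00958 by edgeR) for Rela. Of these mice, 7 gave both tissues, and with the mouse as a block the values were 2.69 (adjusted p = 0.0387) and 1.80 (adjusted p = 0.0176) by edgeR. Vcam1 had 1.34 ± 1.27 (SE), Icam1 1.07 ± 0.53 (SE, adjusted p = 0.194 by edgeR) and Tnfaip3 -0.60 ± 0.81 (SE), which turned to 0.68 with counts scaled by their totals. On that scale Nfkb1, Nfkbia and Icam1 were called as well, so that 5 of the 10 passed, beside 39.4% of all genes in the positive direction and a median of all genes of 1.59.

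**Figure D3:**
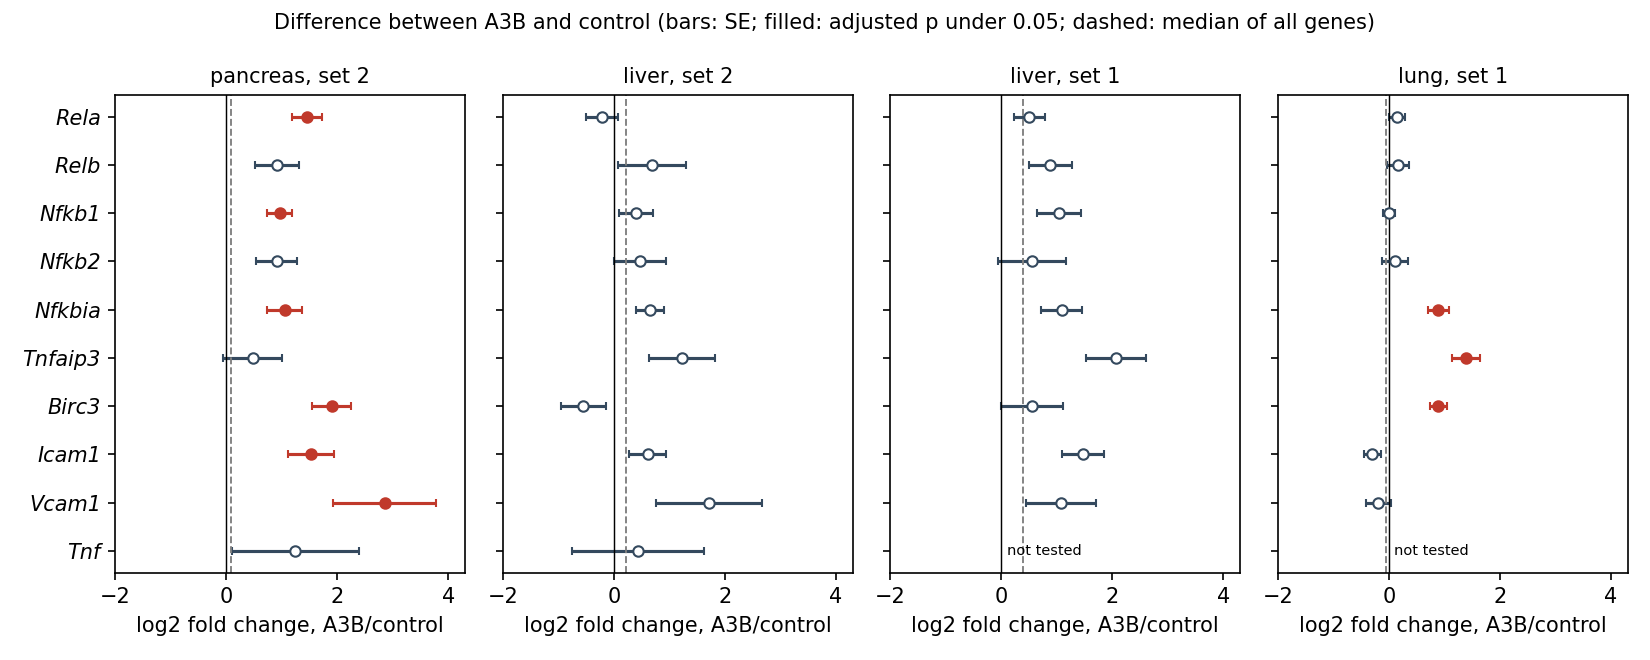
Log2 fold change between A3B and control with its SE for each gene in the 4 comparisons, on the TMM-scaled CPM scale in set 2 and the log2(TPM + 1) scale in set 1; filled red points have an adjusted p under 0.05, and the dashed line is the median of all genes. Filled points number 6 in the pancreas, 0 in both sets of livers and 3 in the lung.

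In the livers of set 1, all 9 genes tested by limma had a positive log2(TPM + 1) difference and none was called, although 4 of them had an unadjusted p under 0.05 (Nfkb1, Nfkbia, Tnfaip3 and Icam1), as did 32.6% of all genes. Tnf fell under the filter of a mean of 1 TPM, at 0.0229 to 0.346 TPM in controls and 0.0332 to 0.501 TPM in A3B livers. Of 11507 genes tested, 6.07% were higher and 1.86% lower. For 5 genes every A3B liver lay above every control, Rela, Relb, Nfkbia, Tnfaip3 and Icam1, and this held for 28.5% of all genes tested. The median difference was 1.04 over the 9 genes and 0.39 over all genes.

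The 2 inhibitors and Icam1 were closest to the threshold. Tnfaip3 measured 2.62, 1.32 and 0.821 TPM in control livers 11, 91 and 92 and 3.58, 14.5 and 14.7 TPM in A3B livers 23, 28 and 70, a difference of 2.06 ± 0.54 on the log2(TPM + 1) scale (SE, adjusted p = 0.0559 by limma). Icam1 measured 29.3, 22.4 and 21.4 TPM in the same controls and 86.4, 89.9 and 41.1 TPM in the same A3B livers, a difference of 1.47 ± 0.38 (SE, adjusted p = 0.0555 by limma). Without A3B liver 70, the only one at 10 days, Icam1 passed the threshold (1.83, adjusted p = 0.0238 by limma). Nfkbia measured 62.2, 58.4 and 56.1 TPM in the controls and 102, 94.6 and 208 TPM in A3B livers, a difference of 1.09 ± 0.37 (SE, adjusted p = 0.097 by limma). In all 3 genes the lowest A3B liver lay above the highest control, with A3B liver 70 highest in Nfkbia and lowest in Icam1.

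Among the subunits in these livers, Rela measured 31, 25.4 and 31.9 TPM in the controls and 38.8, 49.2 and 38.5 TPM in the A3B livers (0.50 ± 0.28, SE, adjusted p = 0.253 by limma). Relb was low, at 0.481 to 0.568 TPM in controls and 1 to 3.72 TPM in A3B livers (0.88 ± 0.39, SE, adjusted p = 0.163 by limma). Control liver 11, labelled with both transgenes, was the highest control in 8 of the 10 genes, and at 65.5 TPM of Nfkb1 it lay above A3B liver 23 (61.3 TPM). The human transgene was at no more than 0.144 TPM in any control liver. Nfkb1 was at 32.2 to 65.5 TPM in controls and 61.3 to 109 TPM in A3B livers (1.04 ± 0.40, SE, adjusted p = 0.122 by limma). Nfkb2 (26.5 to 33.2 against 15.3 to 89.4 TPM), Birc3 (6.95 to 11.8 against 5.64 to 30.3 TPM) and Vcam1 (0.411 to 0.994 against 0.677 to 9.13 TPM) overlapped, and their adjusted p lay between 0.269 and 0.556 by limma. Without control liver 11 none of the genes was called either.

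In the lung, 3 of the 9 genes tested were higher in A3B mice, the inhibitors Nfkbia and Tnfaip3 and the survival gene Birc3, and none was lower. They are the 3 genes for which every A3B lung lay above every control. Of 13651 genes tested by limma, 16.1% were higher and 20.8% lower, and in 23.3% every A3B lung lay above every control. The median difference was 0.15 over the 9 genes and -0.06 over all genes. The call held for all 3 genes without each sample in turn, with adjusted p from 0.00734 to 0.043 by limma.

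Nfkbia measured 326, 232 and 195 TPM in control lungs 87, 88 and 91 and 472, 450 and 441 TPM in A3B lungs 69, 70 and 74, a difference of 0.89 ± 0.19 on the log2(TPM + 1) scale (SE, adjusted p = 0.013 by limma). Tnfaip3 measured 18.7, 19.9 and 15.4 TPM in the controls and 73.9, 36.5 and 42.5 TPM in the A3B lungs, a difference of 1.39 ± 0.26 (SE, adjusted p = 0.00983 by limma). Birc3 measured 22.2, 24.9 and 31.4 TPM in the controls and 53.6, 49.4 and 44.4 TPM in the A3B lungs, a difference of 0.89 ± 0.15 (SE, adjusted p = 0.00658 by limma). A3B lung 69 was the highest sample in all 3 genes.

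The subunit and adhesion genes of the lung lay close to their controls. Nfkb1 averaged 207 ± 22.3 TPM in controls and 207 ± 13.3 TPM in A3B lungs (SD, n = 3 each), a difference of 0.00 ± 0.11 (SE). Rela (57.7 ± 7.84 against 63.9 ± 8.07 TPM), Relb (5.44 ± 1.53 against 6.15 ± 0.901 TPM) and Nfkb2 (147 ± 41.6 against 156 ± 25 TPM) had differences of 0.15, 0.17 and 0.11 on the log2(TPM + 1) scale, with adjusted p between 0.438 and 0.736 by limma. Icam1 was the most abundant of the 10 genes in the lung, at 747 to 1106 TPM in controls and 695 to 764 TPM in A3B lungs (-0.30 ± 0.15, SE, adjusted p = 0.164 by limma). Vcam1 measured 4.56 to 8.03 TPM in controls and 3.79 to 5.68 TPM in A3B lungs (-0.19 ± 0.22, SE). Tnf was under the filter, at 0.435, 0.798 and 1.52 TPM in control lungs 87, 88 and 91 and 0.265 to 0.523 TPM in A3B lungs.

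**Figure D4:**
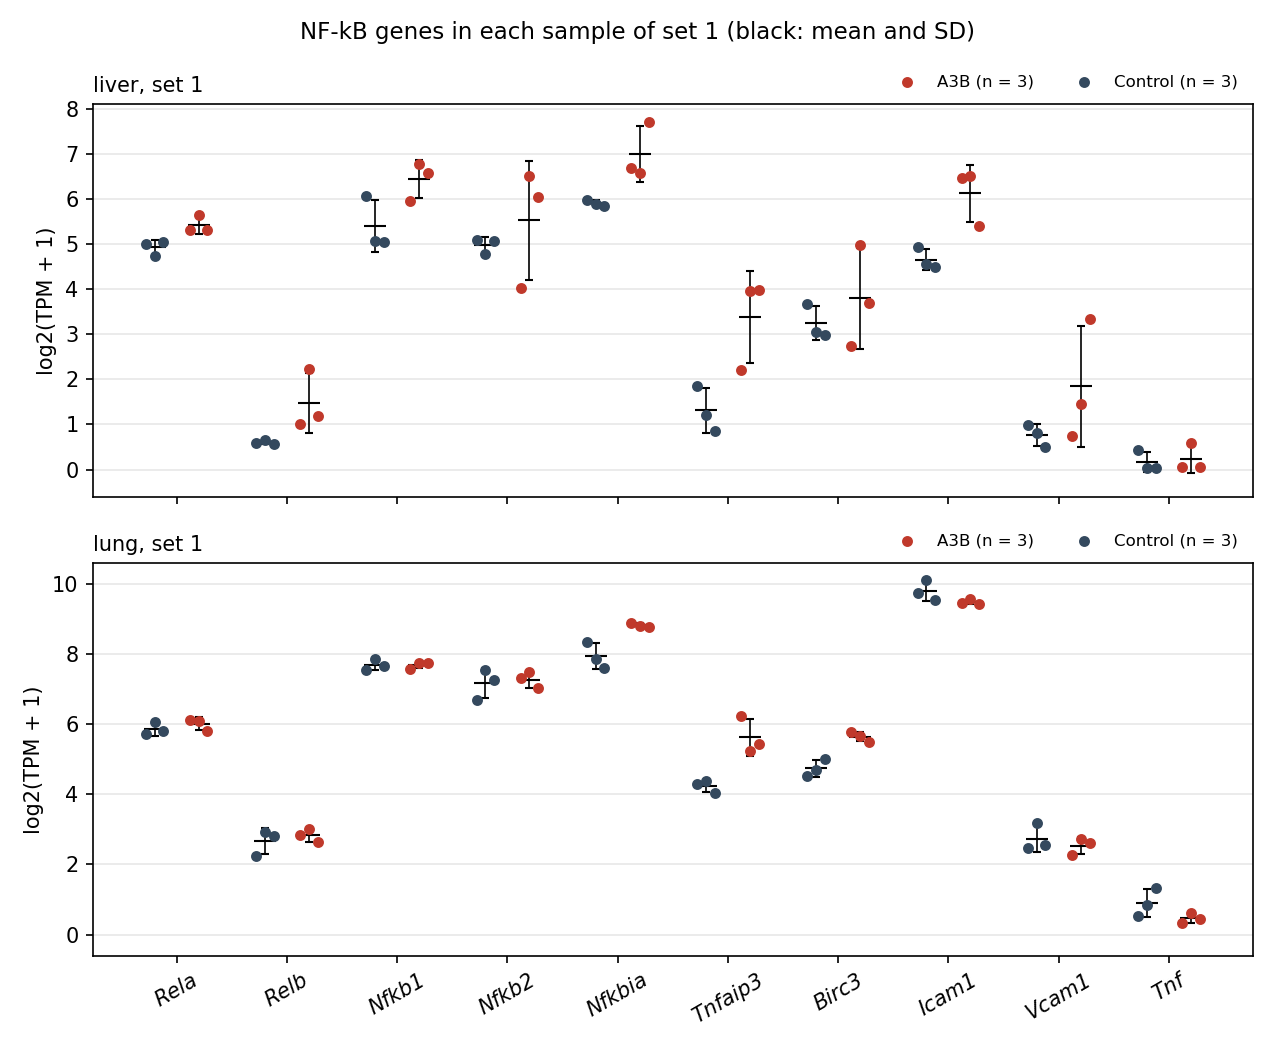
Level of the 10 genes in each sample of set 1, as log2(TPM + 1), with A3B samples in red (n = 3), controls in dark blue (n = 3) and the mean and SD of the log2 values in black. The points of Nfkbia, Tnfaip3 and Birc3 are separate in the lung, and those of Rela, Relb, Nfkbia, Tnfaip3 and Icam1 are separate in the liver.

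The difference of A3B and control differed between liver and lung for 1 of the 9 genes tested, Icam1, at 1.77 ± 0.41 on the log2(TPM + 1) scale (SE, adjusted p = 0.0239 by limma). Over 13477 genes, 8.81% had a positive and 1.94% a negative interaction at the threshold. Nfkb1 had 1.04 ± 0.41 (SE, adjusted p = 0.123 by limma), Tnfaip3 0.67 ± 0.66 and Nfkbia 0.20 ± 0.41 (SE), and none of these 3 passed the test. Mouse 70 (A3B) and mouse 91 (control) gave both tissues, which is too few for a block.

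Levels between genes can be compared in TPM, within a tissue and set. In set 2 the TPM of a gene is summed over all its transcripts, coding or not. In control livers of set 2 the highest mean was that of Nfkbia (46.3 ± 11.5 TPM, SD, n = 2), then Rela (32.2 ± 6.04), Birc3 (15.8 ± 6.34) and Nfkb1 (12.6 ± 2.68), and the last was Tnf (0.0999 ± 0.0234). The ranges of Nfkbia and Rela did not overlap in these 2 livers (38.2 to 54.4 against 27.9 to 36.4 TPM), and those of Birc3 and Nfkb1 did. In A3B pancreases the order was Birc3 (123 ± 41.2 TPM, SD, n = 6), Nfkbia (90.2 ± 22), Rela (61.4 ± 11.5), Nfkb1 (34.3 ± 8.52), Vcam1 (26 ± 19.1), Icam1 (21 ± 6.58), Nfkb2 (17 ± 5.31), Relb (13.1 ± 5.08), Tnfaip3 (5.67 ± 2.06) and Tnf (2.3 ± 2.26). All neighbors in this order overlapped in range. The place of Birc3 rests in part on 2 processed transcripts without a coding label, at 21.2 and 40.1 TPM on average in A3B pancreases. These held 2.89% and 5.37% of its counts on average. The main coding transcripts averaged 46.7 TPM for Birc3-201 and 60.6 TPM for Nfkbia-201, so the lead of Birc3 over Nfkbia does not extend to them. In the lung of set 1 Icam1 led in both groups (902 ± 185 TPM in controls, SD, n = 3), followed by Nfkbia, Nfkb1, Nfkb2 and Rela. The leading gene thus was Nfkbia in each group of livers, in control pancreases and in neither group of lungs.

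The rest of the pathway was followed through 88 other genes in 5 lists. In the pancreas 30 of 88 were higher and 2 lower (17.0% and 14.9% of all genes), with a median log2 fold change of 0.68 beside 0.09 for all genes. In the liver of set 2, 3 of 79 tested were higher and 1 lower (1.26% and 2.41% of all genes), and in the liver of set 1, 7 of 63 were higher and none lower (6.07% and 1.86%). In the lung 13 of 77 were higher and 13 lower, near the 16.1% and 20.8% of all genes. The counts of the single lists below are to be read beside these shares. The median was 0.39 in the liver of set 2, 0.64 in the liver of set 1 and -0.04 in the lung, beside 0.21, 0.39 and -0.06 for all genes.

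Of 11 receptors, 6 were higher in A3B pancreases and none lower. They included the TNF receptor gene Tnfrsf1a (118 TPM in A3B pancreases and 5.37 TPM in controls on average, log2 fold change of the CPM 2.34 ± 0.29, SE, adjusted p = 0.00039 by edgeR), Tnfrsf12a, the receptor of TWEAK (2.69, adjusted p = 0.000487), Tlr2, a sensor of bacterial lipoproteins (2.14, adjusted p = 0.000533), and the second TNF receptor gene Tnfrsf1b (2.39, adjusted p = 0.0012). The difference between A3B and control in Tnfrsf1a and Tnfrsf1b differed between pancreas and liver, by 2.10 (adjusted p = 0.0054) and 2.98 (adjusted p = 0.00461) by edgeR, with liver values of 0.41 and -0.43 that were not called. No receptor was called in the liver of set 2. Il1r1, the receptor of interleukin 1, was called in the liver of set 1 (3.04 ± 0.47, SE, adjusted p = 0.0223 by limma), and Cd40 was lower in the lung (-0.61, adjusted p = 0.0219 by limma). Of 9 ligands beside Tnf, Tnfsf12, which encodes TWEAK, was higher in the pancreas (1.11 ± 0.26, SE, adjusted p = 0.0097 by edgeR) and Tnfsf13b, which encodes BAFF, lower in the lung (-0.97, adjusted p = 0.00783 by limma).

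Of 23 adaptors and kinases, 9 were higher and 2 lower in A3B pancreases. The 4 with the smallest p were Myd88, the adaptor of Toll-like and interleukin 1 receptors (1.86, adjusted p = 0.000849 by edgeR), Ripk1, the kinase at TNF receptor 1 (1.15, adjusted p = 0.00184), and Tab2 and Tab3, which bind ubiquitin chains for the TAK1 kinase (1.15, adjusted p = 0.00322, and 1.55, adjusted p = 0.00358). In the lung 6 were higher and 3 lower, with Irak2 (1.01, adjusted p = 0.00237 by limma) and Traf6 (0.86, adjusted p = 0.00453) higher and Traf5 (-0.66, adjusted p = 0.00592) and Tradd (-0.71, adjusted p = 0.00592) lower. In the liver Irak1 was lower in set 2 (-1.21, adjusted p = 0.0376 by edgeR), and Tbk1 (1.68, adjusted p = 0.0352) and Traf6 (1.92, adjusted p = 0.0446) were higher in set 1 by limma.

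The list of 17 inhibitors and editors also holds Rel, the gene of the fifth subunit c-Rel. Rel was the one gene of this list called in the liver of set 2 (1.31 ± 0.30, SE, adjusted p = 0.0452 by edgeR), and it was also called in the liver of set 1 (2.82 ± 0.40, SE, adjusted p = 0.0198 by limma) and in the lung (1.40 ± 0.15, SE, adjusted p = 0.00294 by limma), at mean levels of no more than 10.9 TPM in any group. In the pancreas Rel was not called (0.26 ± 0.60, SE, adjusted p = 0.772 by edgeR). Of the 17, 5 were higher in the pancreas, with Tnip1, a partner of A20 (2.12, adjusted p = 0.00218 by edgeR), Bcl3, a nuclear IκB (1.59, adjusted p = 0.0102), Tax1bp1, an A20 adaptor (0.98, adjusted p = 0.014), and Nfkbib, which encodes IκBβ (1.05, adjusted p = 0.0186), first by p. In the liver of set 1, Tnip2 (1.35, adjusted p = 0.0395) and Nfkbiz (1.65, adjusted p = 0.0467) were called beside Rel by limma. In the lung 5 were higher and 3 lower.

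Of 28 other targets, 9 were higher in A3B pancreases and none lower. Ier3, an early response gene, had the smallest p (86.4 TPM in A3B pancreases and 0.827 TPM in controls on average, log2 fold change of the CPM 4.55 ± 0.35, SE, adjusted p = 7.86e-05 by edgeR), followed by Tnfaip2 (2.46, adjusted p = 0.000189), Bcl2l1, the gene of the survival protein BCL-XL (2.81, adjusted p = 0.00151), and F3, which encodes tissue factor (2.45, adjusted p = 0.00571). In the liver of set 2 the 2 genes called were Gadd45b, a stress sensor (4.93 ± 0.94, SE, adjusted p = 0.0261 by edgeR), and the chemokine gene Cxcl1 (3.87 ± 0.78, SE, adjusted p = 0.0303). Gadd45b was also the one called in the liver of set 1 (3.85 ± 0.50, SE, adjusted p = 0.0152 by limma). In the lung 2 of 24 were higher and 5 lower, with Bcl2l1 (1.11, adjusted p = 0.00356 by limma) higher and Ier3 (-1.46, adjusted p = 0.00486), Nos2 (-1.23, adjusted p = 0.00657) and Csf1 (-0.96, adjusted p = 0.00832) lower.

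Marker lists in set 1 are given beside the lung and liver results, and their part was not tested. In A3B lungs the macrophage list had 2 genes higher (Cd14 and Marco) and 1 lower (Lyz2), with sums of 942 to 974 TPM against 1184 to 1281 TPM in controls, and the endothelial list 1 higher and 2 lower (5104 to 5651 against 4210 to 4625 TPM). Neutrophil markers summed to 156 to 501 TPM in A3B lungs and 93.9 to 194 TPM in controls, with none of 6 called, and T cell, B cell, leukocyte and fibroblast markers were not called. In A3B livers of set 1 the macrophage list had 1 of 7 genes higher (102 to 610 against 271 to 331 TPM) and no leukocyte marker was called (163 to 385 against 187 to 270 TPM). The hepatocyte sums of these livers did not overlap, at 5570 to 6422 TPM in A3B livers and 7050 to 8763 TPM in controls, with 1 of 5 genes lower. Nor did the endothelial sums (90.6 to 131 against 153 to 179 TPM), with none of 7 called. Of the markers of other tissues, 1 of 2 lung epithelial genes tested was higher and the 1 acinar gene tested was lower. No T cell or B cell marker was called in these livers. The T cell sums were 1.22 to 87.3 TPM in A3B livers and 7.91 to 15.6 TPM in controls, with Cd3e at up to 75.7 TPM in 1 A3B liver and Cd3d and Cd8a under 1 TPM in every liver. The B cell sums were 0.473 to 3.59 TPM in A3B livers and 3.59 to 15.2 TPM in controls, with Ms4a1 listed at 0 in every liver.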

How the data were processed

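For set 2 the authors quantified stranded RNA-seq reads with kallisto v0.46.1 and deposited, for each transcript of mm10, an estimated count and a TPM. For set 1 the authors deposited TPM per gene, computed with GenomicAlignments and GenomicFeatures from a read-count matrix. The sets were normalized separately, so tests stayed within a set. Here 116640 of 119414 transcripts were assigned to symbols with GENCODE M21 (GRCm38, the same build), which left 0.23% to 1.47% of the counts of a library unassigned, and estimated counts were summed per symbol and rounded. In set 2, low counts were removed by filterByExpr, TMM factors were computed, and edgeR 4.0.16 fitted a robust quasi-likelihood model without covariates, with DESeq2 1.42.0 as an alternative. Set 1 was tested with limma 3.58.1 (trend, robust) on log2(TPM + 1) after leaving out genes whose mean was under 1 TPM, and fold changes on that scale understate those of low genes. P-values were adjusted by Benjamini-Hochberg over all genes tested at a threshold of 0.05. Interaction terms compared tissues.

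The members and lists were chosen with earlier results of these data known. The text names every member and, from each list, at most 4 genes per comparison, those past the threshold with the smallest p, plus the values of Rel, Tnfrsf1a and Tnfrsf1b where they were not called, added after their values were seen. Mouse numbers pair the tissues of set 2 because the same animals gave both, and the correlation of deviations from the group means within an animal ran from 0.00 to 0.28. Scripts were tested on simulated data. Reads shared by near-identical copies or overlapping genes were divided by kallisto, and this was not examined for the members. Software was R 4.3.3 and, for summaries and plots, Python with pandas and matplotlib.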

Additional observations from a re-analysis of the deposited data

Results flagged for a closer look

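In 20 groups of A3B samples tested (10 genes in each tissue of set 2), 2 held a sample far from the others, where chance gives about 1 in 20. Birc3 in A3B liver 49 stood at 23.2 CPM, with the other 5 A3B livers at 7.81 to 12.5 CPM. Tnf in A3B pancreas 49 stood at 5.04 CPM, with the other 5 A3B pancreases at 0.815 to 2 CPM. Both samples came from the same mouse.

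The A3B difference itself differed between tissues for 3 genes. The interaction of pancreas and liver was 2.61 for Birc3 and 1.83 for Rela on the log2 CPM scale (edgeR), and that of liver and lung was 1.77 for Icam1 on the log2(TPM + 1) scale (limma). On the CPM scale Birc3 and Rela each were higher in all 6 A3B pancreases and lower in 5 of 6 A3B livers than in both controls. In TPM summed over transcripts the liver did not keep this direction, with 2 A3B livers above both controls and 0 below them in Birc3 and 4 above and 1 below in Rela. The main coding transcript Birc3-201 alone averaged 5.48 TPM in A3B livers and 6.74 TPM in controls. Icam1 was higher in all 3 A3B livers than in the controls of set 1, with a lung difference of -0.30.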

How the results depend on the processing

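Over all alternatives, 414 single-gene values kept their direction and their side of the threshold, 16 newly passed it, 15 no longer passed it and 14 changed sign, and the cause was not tested for any of them. With counts scaled by their totals the number of members called higher was 1 in the liver of set 2 (Nfkbia, beside 5.06% of all genes) and 5 for the difference between pancreas and liver (39.4% of all genes), Rela in the liver became 0.24 and Tnfaip3 in the difference 0.68. With limma on log2(TPM + 1), all 10 were called in the pancreas, as were 83.9% of all genes, and Rela and Birc3 in the liver became 0.10 and 0.16. Without A3B pancreases 44 and 137, 3 were called. With each sample left out in turn, the members called ranged from 2 to 9 in the pancreas, from 0 to 0 in the liver of set 2, from 0 to 1 in the liver of set 1 and from 3 to 3 in the lung. Fold changes that changed sign then ranged from -0.28 to 2.34 for Tnfaip3 in the pancreas (negative without control 45), from -0.04 to 0.77 for Tnf in the liver of set 2, from -0.03 to 1.09 for Birc3 in the liver of set 1, and in the lung from -0.06 to 0.09 for Nfkb1 (0.00 with all samples), from -0.04 to 0.31 for Relb, from -0.12 to 0.30 for Nfkb2 and from -0.32 to 0.03 for Vcam1. With the mouse as a replicate block, 2 members were called in the difference between pancreas and liver, as without the block, and no call changed.

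No member was called lower under any of the alternatives. The 2 controls per tissue in set 2 and the unequal composition of the pancreas libraries limit precision. No interval can be given for counting error in set 1, since the table holds TPM. Single livers weighed heavily on the calls over all genes. In set 1, 699 were higher and 214 lower with all samples, 1 and 0 without control 91, 7 and 2 without control 92, 43 and 12 without A3B liver 23, 1362 and 200 without control 11, and 819 and 511 without A3B liver 70. In set 2, 218 were higher and 418 lower with all samples, 10 and 64 without control 45, and 3 and 70 without control 168. The counts there were 43 and 173 without A3B liver 44, 45 and 133 without 137, 86 and 291 without 125, 379 and 744 without 48, and 655 and 944 without 49.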
